A study of Mus musculus with 6 samples.

Results

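The 37 genes described here encode the machinery of mitosis and the kinetochore, and they were picked by name, as the rows of the deposited gene tables that carry their symbols. All 37 were found, each under 1 gene ID, among 46517 gene IDs in all. RNA was sequenced from E14TG2a, a mouse embryonic stem cell line with a wild-type (WT) genotype label and labelled as untreated, at 3 stages of differentiation with 2 libraries each. The mESC group is the stem cells, kept in serum and LIF on gelatin with no feeder layer. NPC are the neuronal progenitors made from them, and NC is a later stage that the labels do not spell out, read here as the one stage of the design text not yet assigned, glutamatergic pyramidal neurons. All 3 groups carry the same cell line, genotype, blastocyst and stem cell labels, so the stage comes from the sample titles. The libraries of a stage are called biological replicates, without saying whether they came from separate cultures, so p-values measure the spread between these libraries only.

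A cell entering mitosis activates the kinase CDK1 with cyclins A and B, condenses its chromosomes, and builds a spindle whose microtubules attach to kinetochores, the protein assemblies on centromeres. The spindle checkpoint holds back the anaphase-promoting complex until every kinetochore is attached. The complex then marks securin and cyclin B for destruction, separase opens the cohesin rings, and the cell divides. Most of these genes are transcribed in G2 and mitosis and are kept low in cells that have left the cycle, as neurons do. Their promoters are known for a pair of short elements, the cell cycle genes homology region (CHR), bound by the MuvB complexes, and the CCAAT box, bound by NF-Y.

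Depth, from the ratio of deposited coverage to FPKM, lay between 1.57 and 2.27 Gb of aligned bases per library, and 16667 to 19040 genes reached 1 TPM (a level per transcript length, with 1 total for every library). Summed over 8 pluripotency genes, the level was 6135 and 5988 TPM in mESC, 30.2 and 25.8 TPM in NPC, and 21.5 and 24.8 TPM in NC, with Pou5f1 listed at 0 in both NC libraries. Summed over 11 neuron genes it was 271 and 333 TPM in mESC, 879 and 1263 TPM in NPC, and 4599 and 4387 TPM in NC, and all 11 rose in NC against mESC. Of the 6 glutamatergic markers, whose sum was 68.2 and 26.0 TPM in NC, Slc17a6, a vesicular glutamate transporter, was at 28.9 and 21.6 TPM in NC and rose against NPC by 4.25 on the log2 scale (SE 0.282, limma adjusted p = 0.00286). Neurod6 was at 14.7 TPM in NC replicate 1 and listed at 0 in replicate 2, Neurod2 was at 20.7 and 0.219 TPM, and Tbr1 stayed at or below 0.502 TPM in both. Markers of other cell types were also present in NC. The 10 neural progenitor genes summed to 2729 and 1822 TPM in NC, against 1623 and 1736 TPM in NPC. Vim (1385 and 1354 TPM) and Fabp7 (792 and 164 TPM) held most of the NC sum. By limma 2 of the 10 rose, 2 fell and 6 did not pass in NC against NPC, with log2 fold changes from -2.88 to 2.87. The change was negative for 8 of the 10 (median -0.39), with Pax6 and Hes1 lower by 2.05 and 1.66. The 10 glia genes summed to 117 and 68.3 TPM in NC, against 65.9 and 58.2 TPM in NPC. Aldh1l1 gave 59.3 TPM of the first NC library and 1.89 TPM of the second, and of the 7 glia genes tested 1 rose and 2 fell in NC against NPC (median -0.05). The 8 fibroblast and smooth muscle genes summed to 919 and 1081 TPM in NC, against 40.2 and 79.7 TPM in NPC, and all 8 rose. Dividing cells of such types express mitotic genes, and their part in the NC levels below was not tested.

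Over the whole course, 34 of the 37 genes fell, 1 rose and 2 did not pass the test when NC was compared with mESC. The 37 summed to 4900 and 5205 TPM in mESC, 4152 and 3933 TPM in NPC, and 1943 and 1933 TPM in NC. Most of the loss came at the second step, and the level in NC was well above 0 for every gene. The lowest value of any of the 37 in any library was 11.95 TPM, for Cdca5 in NC replicate 1. Relative to the mESC mean, the NC mean of the 34 genes lay between 18.5% and 58.4%, with a median of 31.6%, and 10 genes were below 25%. In bulk RNA, fewer cells of a dividing type and less RNA in each cell cannot be told apart.

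**Figure D1:**
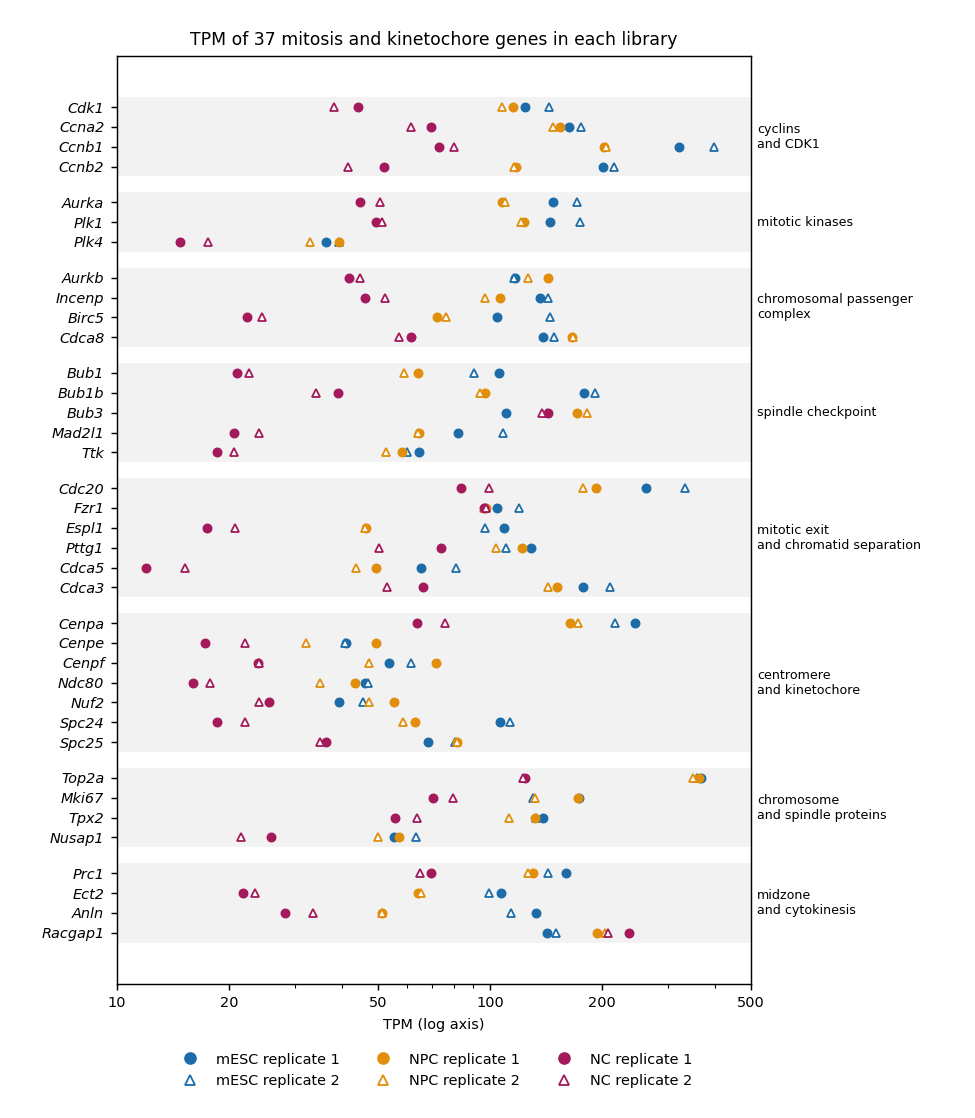
TPM of each of the 37 genes (log axis) in the 6 libraries, grouped by role, with filled symbols for replicate 1 and open ones for replicate 2 of each stage. The NC symbols lie left of both other stages for 34 genes, and Bub3, Fzr1 and Racgap1 are the genes whose NC values are near or above those of mESC.

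The test was limma on log2(TPM + 1) with all 6 libraries, and a gene counts as changed at a Benjamini-Hochberg adjusted p under 0.05 over 20232 tested genes. All 37 genes entered it, with at least 10 TPM in all 6 libraries. In NC against mESC, 34 of 37 fell, against 22.1% of all tested genes, and 1 rose, against 37.8%. In all, 59.9% of tested genes changed in 1 direction or the other. The median log2 fold change of the 37 was -1.55, beside 0.31 for all tested genes. Every NC library was below every mESC library for 35 of the 37, against 30.2% of all tested genes, and above for 1, against 48.5%. Both NC libraries summed to nearly the same TPM, although progenitor and glutamatergic markers differed between them. Leaving out NC replicate 1 or 2 left 33 and 34 of the 34 falls past the threshold.

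At the first step, NPC against mESC, 14 of the 37 fell (14.0% of all tested genes), 2 rose (26.0%) and 21 did not pass the test, with a median log2 fold change of -0.25, beside 0.18 for all tested genes. Of all tested genes, 40.0% changed at this step. At the second, NC against NPC, where 25.3% of all tested genes changed, 34 fell (10.1%), none rose (15.2%) and 3 did not pass, with a median of -1.24, beside 0.11. The second count depends on 1 library: without NPC replicate 1 far fewer of the 34 passed, and far fewer of all tested genes too. The log2 fold changes of the 34 kept to between -1.66 and -0.70 there. The first depends on the NPC libraries too, and without either of them fewer of the 14 and fewer of all tested genes passed. The log2 fold changes of the 14 lay between -1.24 and -0.42 without NPC replicate 1, and between -1.24 and -0.39 without replicate 2. Every NC library was below every NPC library for 35 genes (28.2% of all tested genes) and above for 1 (40.3%). Every NPC library was below every mESC library for 24 genes (28.3%) and above for 6 (45.9%). The calls give 14 genes lower at both steps and 20 only at the second, and the difference between the steps was not itself tested. The 0 rises in NC against NPC by limma held in every alternative setting run, and at an unadjusted p under 0.05 the count was also 0.

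**Figure D2:**
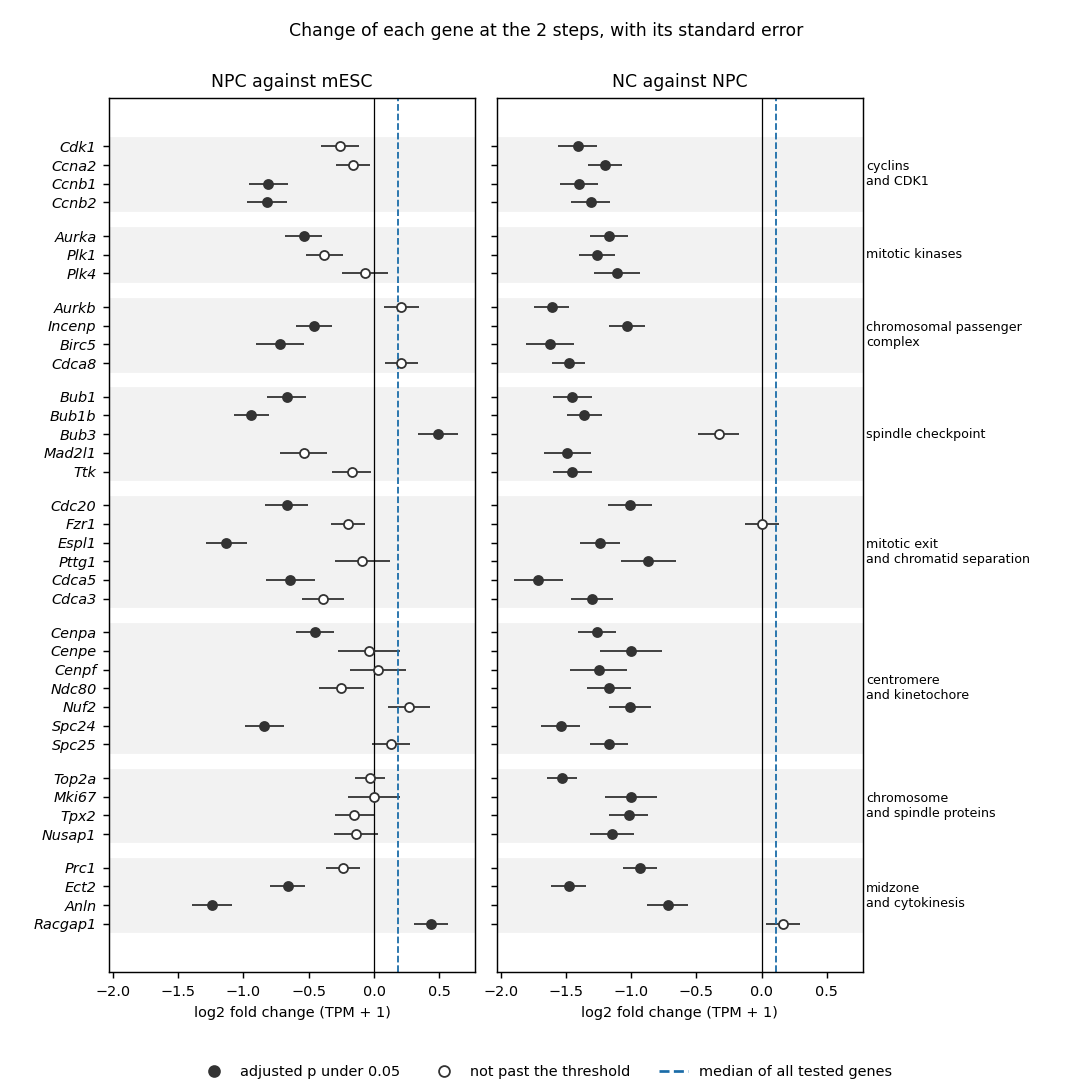
Log2 fold change of each gene with its standard error in NPC against mESC (left) and in NC against NPC (right), filled where the limma adjusted p is under 0.05, with the median of all tested genes as a dashed line. The left panel spreads from -1.24 to 0.49 with 16 filled points, and the right panel holds 34 filled points, all to the left of 0.

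The promoters of these genes are shown because most of the 37 fell together and because the same 2 elements recur in them. RefSeq windows on GRCm38.p6, from 250 bases before the start of a gene to 50 after it, were given for 32 of the 37. Both strands were searched for the CHR letters TTTGAA or TTCGAA and for CCAAT. A CHR and a CCAAT match may share a base, which 1 pair among these genes did. The lines below run 5′ to 3′ on the strand of the gene from 100 bases before its start, with CHR and CCAAT letters in capitals (ATTGG and TTCAAA are the same letters read on the other strand). The first 6 lines are chosen examples, genes that fell and hold both elements, with Cdk1 and Ccnb2 from the same role. They do not stand for every gene that fell. The last 3 are those that were not lower in NC than in mESC by the test.
Cdk1 (chr10:69352863-69353012, minus strand): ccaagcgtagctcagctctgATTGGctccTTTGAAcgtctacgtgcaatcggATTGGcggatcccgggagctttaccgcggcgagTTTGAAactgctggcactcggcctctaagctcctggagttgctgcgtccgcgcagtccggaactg
Ccnb2 (chr9:70421505-70421654, minus strand): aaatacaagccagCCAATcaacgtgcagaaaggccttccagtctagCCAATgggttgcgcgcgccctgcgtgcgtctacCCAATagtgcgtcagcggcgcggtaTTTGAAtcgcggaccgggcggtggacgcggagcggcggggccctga
Plk1 (chr7:122159335-122159484, plus strand): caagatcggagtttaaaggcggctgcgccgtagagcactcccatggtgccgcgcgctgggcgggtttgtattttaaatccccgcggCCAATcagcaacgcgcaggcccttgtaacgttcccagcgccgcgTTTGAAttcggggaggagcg
Cdc20 (chr4:118437294-118437443, minus strand): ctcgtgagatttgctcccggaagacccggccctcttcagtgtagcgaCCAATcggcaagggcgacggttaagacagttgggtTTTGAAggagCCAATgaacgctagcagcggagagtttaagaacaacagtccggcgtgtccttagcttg
Cenpa (chr5:30666786-30666935, plus strand): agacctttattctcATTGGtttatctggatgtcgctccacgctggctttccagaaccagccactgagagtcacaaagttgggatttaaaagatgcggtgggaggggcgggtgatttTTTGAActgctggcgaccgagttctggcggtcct
Prc1 (chr7:80294351-80294500, plus strand): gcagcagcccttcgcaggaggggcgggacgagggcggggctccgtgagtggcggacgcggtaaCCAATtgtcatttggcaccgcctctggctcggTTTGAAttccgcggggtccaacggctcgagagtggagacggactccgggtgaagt
Fzr1 (chr10:81378321-81378470, minus strand): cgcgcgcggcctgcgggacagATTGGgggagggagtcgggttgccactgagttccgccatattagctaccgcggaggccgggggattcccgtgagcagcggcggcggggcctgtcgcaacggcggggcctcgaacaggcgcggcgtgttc
Bub3 (chr7:131560270-131560419, plus strand): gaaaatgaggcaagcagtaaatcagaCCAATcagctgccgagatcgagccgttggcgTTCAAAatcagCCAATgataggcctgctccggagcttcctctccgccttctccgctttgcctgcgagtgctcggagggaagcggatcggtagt
Racgap1 (chr15:99651607-99651756, minus strand): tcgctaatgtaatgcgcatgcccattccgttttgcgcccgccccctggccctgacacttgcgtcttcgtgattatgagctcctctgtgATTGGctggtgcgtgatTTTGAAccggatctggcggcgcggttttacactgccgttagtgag

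CHR letters stood in 23 of the 32 windows (71.9%), against 21.7% of 27025 genes with a window. CCAAT stood in 23 (71.9%, against 41.1%), and both in 20 (62.5%, against 8.6%). At least 2 CCAAT were found in 16 windows (50.0%, against 13.3%). Of the 23 genes with CHR letters, 22 had a match that starts within 50 bases before the gene's start or after it. Of their 33 CHR matches, 24 read on the strand of the gene, 4 are palindromes and the rest lie on the other strand. In Ccnb2, cyclin B2, 3 CCAAT boxes on the gene's strand follow each other with 33 bases between their starts, and the CHR letters come next, just after the gene's start. In Cdc20, the CHR letters lie between 2 CCAAT boxes.

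Both sets of letters were found among genes that fell and among genes that did not. Only Bub3, Fzr1 and Racgap1 were not called lower in NC against mESC as deposited, too few to compare the groups. The 20 genes with both had a median log2 fold change of -1.66 in NC against mESC and ranged from -2.38 to 0.60, and Bub3 and Racgap1, neither of which was lower in NC, are among them. Cdca5, Ndc80 and Anln had CHR letters without CCAAT (median -1.96). Ccnb1, Fzr1 and Cenpe had CCAAT without CHR letters, with changes from -2.21 to -0.20. The 6 genes with neither (Plk4, Birc5, Mad2l1, Pttg1, Nuf2 and Nusap1) had a median of -1.23 and all fell. A match is a run of letters, not a bound site, and no match says only that the letters are not in this window. Ccna2, Aurkb, Incenp, Spc24 and Tpx2 are named only.

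**Figure D3:**
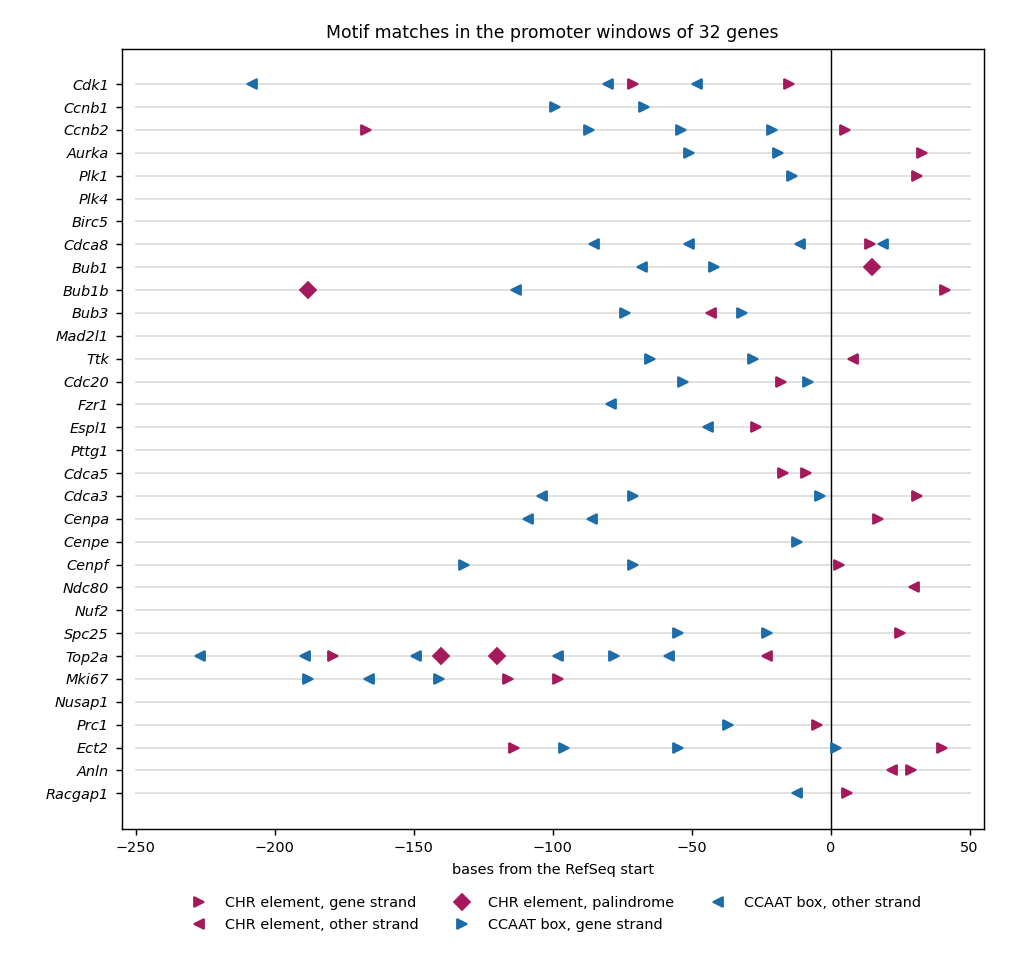
Position of each CHR match and CCAAT match, in bases from the RefSeq start, in the windows of 32 genes, with the symbol pointing along the strand and a diamond for a palindrome. For 22 genes a CHR match lies no more than 50 bases left of the start or right of it, and 6 rows, Plk4, Birc5, Mad2l1, Pttg1, Nuf2 and Nusap1, are empty.

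The cyclins and CDK1, which drive entry into mitosis, all fell in NC. Cdk1 (ENSMUSG00000019942.11, chromosome 10, 69336635 to 69352938 on mm10), the kinase itself, stood at 124 and 144 TPM in mESC, 115 and 107 TPM in NPC, and 44.2 and 38.2 TPM in NC. Both NC libraries were far below the other 4, and the NPC and mESC libraries did not overlap but lay close together. Cdk1 changed by a log2 fold of -1.41 in NC against NPC (SE 0.148, limma adjusted p = 0.00338) and by -0.26 in NPC against mESC (SE 0.148, limma adjusted p = 0.203).

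The B-type cyclins, its partners from G2 to anaphase, fell at both steps. Ccnb1 (ENSMUSG00000041431.15, chromosome 13, 100778650 to 100786570) was at 322 and 398 TPM in mESC, 202 and 205 TPM in NPC, and 73.0 and 80.1 TPM in NC. Its stages were fully separate, and its log2 fold change was -0.81 in NPC against mESC (limma adjusted p = 0.00598) and -1.40 in NC against NPC (limma adjusted p = 0.00338). Ccnb1 has near-identical gene copies, among them Ccnb1-ps, which aligned at 99.2% identity over 1287 bases and was itself listed at 16.3 and 14.5 TPM in NC, against 63.1 and 84.0 TPM in mESC, so how reads were split between them is uncertain. Ccnb2, whose 3 CCAAT boxes are shown above, was at 201 and 215 TPM in mESC, 118 and 116 TPM in NPC, and 52.0 and 41.6 TPM in NC. Ccna2, cyclin A2, which acts from S phase on, kept closer to the stem cell level in NPC, with 162 and 175 TPM in mESC, 154 and 148 TPM in NPC, and 69.5 and 61.3 TPM in NC. It fell in NC against NPC (limma adjusted p = 0.00354, log2 fold change -1.20, SE 0.132), and in NPC against mESC its log2 fold change of -0.16 did not pass (limma adjusted p = 0.391). Of its exon bases, 12.5% overlap Exosc9 on the other strand, and the strand setting of the counting is not known.

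Of the 3 mitotic kinases, all fell in NC against mESC and 1 in NPC against mESC. Aurka, the Aurora kinase of the spindle poles, was at 148 and 171 TPM in mESC, 108 and 109.8 TPM in NPC, and 44.7 and 50.8 TPM in NC, and fell at both steps (log2 fold change -0.54, then -1.17). Plk1 (ENSMUSG00000030867.6, chromosome 7, 122159437 to 122169875), the Polo-like kinase of mitotic entry and cytokinesis, was at 145 and 174 TPM in mESC, 123 and 121 TPM in NPC, and 49.3 and 51.2 TPM in NC. Its NPC libraries were below both mESC libraries, though the change of -0.38 did not pass (limma adjusted p = 0.0743), and the change of -1.26 in NC against NPC did (limma adjusted p = 0.00357). Plk4, the kinase of centriole duplication, was the least abundant of the 37 in mESC and NPC, with 36.4 and 39.3 TPM and 39.3 and 32.9 TPM, and had 14.8 and 17.5 TPM in NC.

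The chromosomal passenger complex corrects faulty attachments of microtubules, and its 4 subunits parted at the first step. Birc5 (ENSMUSG00000017716.14, chromosome 11, 117849251 to 117855743), survivin, was at 104 and 145 TPM in mESC, 72.0 and 76.2 TPM in NPC, and 22.3 and 24.4 TPM in NC. Incenp, the scaffold of the complex, was at 136 and 143 TPM in mESC, 106 and 96.7 TPM in NPC, and 46.2 and 52.4 TPM in NC. Both fell in NPC against mESC, by log2 fold changes of -0.72 and -0.46 (limma adjusted p = 0.0217 and 0.0375).

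Aurkb, the kinase of the complex, had 117 and 116 TPM in mESC, 143 and 126 TPM in NPC, and 42.0 and 44.8 TPM in NC. Cdca8, borealin, had 139 and 148 TPM in mESC, 166 and 166 TPM in NPC, and 61.3 and 57.0 TPM in NC. For both, the NPC libraries were the highest of the 6, yet the change of 0.21 from mESC did not pass (limma adjusted p = 0.263 and 0.217), and after median-of-ratios scaling it was -0.02 and -0.01. In NC against NPC both fell, Aurkb by -1.61 and Cdca8 by -1.48 on the log2 scale. The ratio of Cdca8 to Birc5 TPM was 1.33 and 1.02 in the mESC libraries, 2.31 and 2.18 in the NPC libraries, and 2.74 and 2.34 in the NC libraries.

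Of the 5 spindle checkpoint genes, 4 fell in NC against mESC and Bub3 did not pass. Bub1b (ENSMUSG00000040084.9, chromosome 2, 118598211 to 118641591), which encodes BUBR1, part of the inhibitor of the anaphase-promoting complex, stood at 179 and 191 TPM in mESC, 96.9 and 94.3 TPM in NPC, and 39.2 and 34.3 TPM in NC. Its stages were separate at each step, and in NC against mESC it fell by 2.30 on the log2 scale (SE 0.134, limma adjusted p = 4.26e-05). Bub1, the kinase that recruits the checkpoint to kinetochores, was at 106 and 90.8 TPM in mESC, 64.0 and 58.6 TPM in NPC, and 21.0 and 22.6 TPM in NC, with log2 fold changes of -0.67 and then -1.45.

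Mad2l1 and Ttk were called lower at the second step only. Mad2l1, the MAD2 subunit of the inhibitor, was at 81.9 and 108 TPM in mESC, 64.6 and 64.2 TPM in NPC, and 20.6 and 24.1 TPM in NC, and at the first step its log2 fold change of -0.54 missed the threshold (limma adjusted p = 0.0524). Ttk, the checkpoint kinase MPS1, was at 64.5 and 59.9 TPM in mESC, 58.2 and 52.5 TPM in NPC, and 18.5 and 20.6 TPM in NC. The NC libraries of both were the lowest by a wide margin.

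Bub3 (ENSMUSG00000066979.5, chromosome 7, 131560391 to 131571898), the WD-repeat partner that carries BUB1 and BUBR1 to kinetochores, followed another course. It was at 111 and 142 TPM in mESC, 171 and 182 TPM in NPC, and 143 and 138 TPM in NC. Its NPC libraries were the highest, and its NC libraries overlapped those of mESC. The change of Bub3 in NC against mESC was a log2 fold of 0.16 (SE 0.156, limma adjusted p = 0.395), and -0.15 after median-of-ratios scaling (limma adjusted p = 0.515). It rose in NPC against mESC by 0.49 (limma adjusted p = 0.0457), a call lost after that scaling (0.26, limma adjusted p = 0.303). The ratio of Bub3 to Bub1 TPM was 1.05 and 1.56 in the mESC libraries, 2.67 and 3.10 in the NPC libraries, and 6.82 and 6.09 in the NC libraries. As the promoter above shows, Bub3 has 2 CCAAT boxes and CHR letters on the other strand.

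Mitotic exit and chromatid separation held both one of the deepest falls and a gene that did not pass. Espl1 (ENSMUSG00000058290.3, chromosome 15, 102296293 to 102324356), separase, the protease that cuts cohesin, was at 109 and 96.8 TPM in mESC, 46.4 and 46.3 TPM in NPC, and 17.4 and 20.7 TPM in NC. Espl1 over the whole course, NC against mESC, fell by 2.38 on the log2 scale (SE 0.155, limma adjusted p = 6.04e-05), and it was called lower at both steps. Pttg1, securin, the inhibitor that holds separase, was at 129 and 110.4 TPM in mESC, 122 and 103 TPM in NPC, and 73.8 and 50.5 TPM in NC. Its mESC and NPC libraries overlapped, and in NC against NPC it fell by 0.87 on the log2 scale (limma adjusted p = 0.0284). The ratio of Pttg1 to Espl1 TPM was 1.18 and 1.14 in the mESC libraries, 2.63 and 2.24 in the NPC libraries, and 4.24 and 2.44 in the NC libraries.

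Cdc20 and Fzr1, which encodes CDH1, are the 2 activators of the anaphase-promoting complex, CDC20 in mitosis and CDH1 from late mitosis into G1. Cdc20 (ENSMUSG00000006398.14, chromosome 4, 118432901 to 118437352) was at 262 and 332 TPM in mESC, 193 and 177 TPM in NPC, and 83.8 and 99.4 TPM in NC, and it fell at both steps. Fzr1 (ENSMUSG00000020235.15, chromosome 10, 81366222 to 81378516) was at 105 and 119 TPM in mESC, 97.4 and 96.3 TPM in NPC, and 96.1 and 97.5 TPM in NC. The NC and NPC libraries of Fzr1 overlapped, and its change of -0.20 in NC against mESC did not pass as deposited (SE 0.130, limma adjusted p = 0.215). After median-of-ratios scaling that change was -0.52 and passed (limma adjusted p = 0.0247), so the call on Fzr1 depends on the scaling.

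The balance of the 2 activators thus differed by stage. Fzr1 over Cdc20 was 0.399 and 0.359 in the mESC libraries, 0.505 and 0.543 in the NPC libraries, and 1.15 and 0.981 in the NC libraries, a ratio within a library that scaling does not touch. Cdca5 and Cdca3, the remaining genes of this group, fell in NC. Cdca5, sororin, which protects cohesin on sister chromatids, was at 65.5 and 81.0 TPM in mESC, 49.4 and 43.8 TPM in NPC, and 11.95 and 15.2 TPM in NC, the lowest of the 37 in NC, and Cdca3, a substrate adaptor linked to degradation of WEE1, was at 178 and 210 TPM in mESC, 151 and 143 TPM in NPC, and 66.0 and 53.1 TPM in NC.

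**Figure D4:**
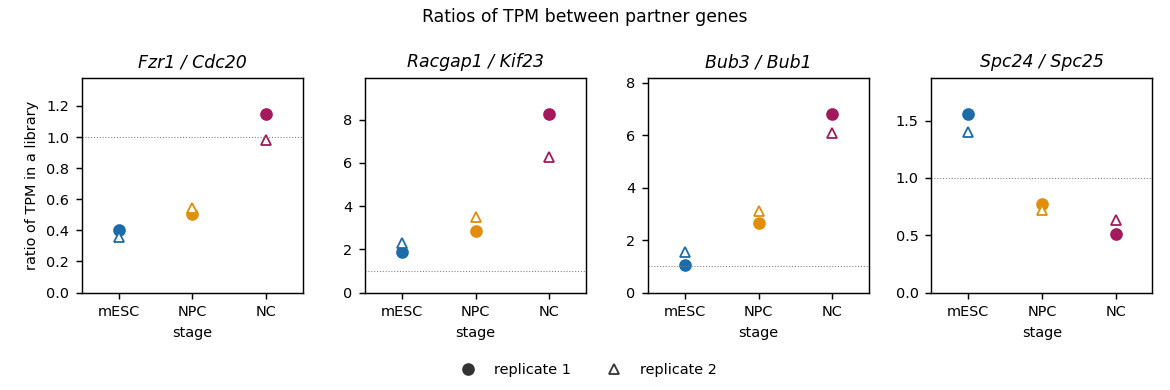
Ratio of the TPM of 2 partner genes in each library (linear axes from 0), by stage, with filled symbols for replicate 1, open ones for replicate 2 and a dotted line at 1. Fzr1 over Cdc20 is 0.981 to 1.15 in NC and at most 0.543 in the other 4 libraries, Racgap1 over Kif23 is 6.27 to 8.28 in NC, Bub3 over Bub1 is 6.09 to 6.82 in NC, and Spc24 over Spc25 is lowest in NC.

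All 7 centromere and kinetochore genes fell in NC, and 2 of them at the first step as well. Cenpa (ENSMUSG00000029177.8, chromosome 5, 30666777 to 30674830), the histone H3 variant that marks centromeres, was at 245 and 216 TPM in mESC, 164 and 172 TPM in NPC, and 63.7 and 75.8 TPM in NC. It fell in NPC against mESC (limma adjusted p = 0.0471, log2 fold change -0.45, SE 0.146) and in NC against NPC (-1.26, SE 0.146, limma adjusted p = 0.0038). Cenpe, the kinesin that moves chromosomes to the spindle's middle, and Cenpf, a large protein of the outer kinetochore, had mESC and NPC libraries that overlapped. In NC, Cenpe was at 17.2 and 22.0 TPM and Cenpf at 23.8 and 24.1 TPM, against 49.4 and 32.1 TPM and 71.8 and 47.4 TPM in NPC.

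The 4 subunits of the NDC80 complex, which grips microtubules, are made into 1 complex but differed in their RNA. Spc24 (ENSMUSG00000074476.5, chromosome 9, 21755442 to 21760286) had 106 and 113 TPM in mESC, 62.9 and 58.6 TPM in NPC, and 18.6 and 22.0 TPM in NC. Its partner Spc25 (ENSMUSG00000005233.15, chromosome 2, 69193895 to 69206194) was at 68.1 and 80.8 TPM in mESC, 81.4 and 81.3 TPM in NPC, and 36.3 and 35.0 TPM in NC. The mESC libraries were thus the highest for Spc24 and not for Spc25, whose mESC replicate 2 and NPC libraries were all close to 81 TPM.

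In NC against mESC, Spc24 fell by 2.38 and Spc25 by 1.04 on the log2 scale (SE 0.150 and 0.144, limma adjusted p = 5.37e-05 and 0.00118). Spc24 over Spc25 was 1.56 and 1.40 in the mESC libraries, 0.773 and 0.721 in the NPC libraries, and 0.511 and 0.629 in the NC libraries. Ndc80, the subunit that names the complex, was at 46.2 and 47.1 TPM in mESC, 43.5 and 34.9 TPM in NPC, and 16.0 and 17.7 TPM in NC. Nuf2, its partner in the outer dimer, was at 39.3 and 45.6 TPM in mESC, 55.1 and 47.3 TPM in NPC, and 25.5 and 24.1 TPM in NC, which at 58.4% of the mESC mean was the smallest loss among the 34 genes that fell. A 303-base stretch of Ndc80 aligns at 95.05% identity to 2700099C18Rik, and Mad2l1, Mki67 and Racgap1 also have stretches of at least 200 bases at 95% identity or more elsewhere, so their counts are uncertain to that extent.

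None of the 4 genes of chromosome and spindle proteins passed the test in NPC against mESC (limma, 0 at an unadjusted p under 0.05 as well), and all 4 fell in NC against NPC. Top2a (ENSMUSG00000020914.16, chromosome 11, 98992943 to 99024189), the topoisomerase that untangles sister chromatids, was the most abundant of the 37 in mESC and NPC, with 368 and 359 TPM in mESC, 363 and 351 TPM in NPC, and 124 and 123 TPM in NC. Its mESC and NPC libraries overlapped, and in NC against NPC it fell by 1.53 on the log2 scale (SE 0.117, limma adjusted p = 0.00286). Mki67, which coats mitotic chromosomes and is the common marker of dividing cells, was at 173 and 131 TPM in mESC, 172 and 132 TPM in NPC, and 70.2 and 79.4 TPM in NC. Here the 2 libraries of a stage differed by more than the means of mESC and NPC did.

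Tpx2, which brings Aurora A to the spindle, was at 139 and 132 TPM in mESC, 132 and 112 TPM in NPC, and 55.7 and 63.8 TPM in NC. Nusap1, a microtubule-bundling protein of the spindle, was at 55.4 and 63.3 TPM in mESC, 57.2 and 50.1 TPM in NPC, and 25.9 and 21.5 TPM in NC. In both, the NC libraries were separate from the other 4.

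The midzone and cytokinesis genes split. Anln (ENSMUSG00000036777.7, chromosome 9, 22331214 to 22389206), anillin, the scaffold of the contractile ring, had its larger loss at the first step, with 133 and 114 TPM in mESC, 51.4 and 51.4 TPM in NPC, and 28.3 and 33.6 TPM in NC. It fell by 1.24 on the log2 scale in NPC against mESC (SE 0.156, limma adjusted p = 0.0014) and by 0.72 in NC against NPC (SE 0.156, limma adjusted p = 0.0198). Ect2, the exchange factor that activates RhoA for the ring, was at 107 and 99.4 TPM in mESC, 64.2 and 65.2 TPM in NPC, and 21.8 and 23.4 TPM in NC, and fell at both steps. Prc1, which bundles the microtubules of the midzone, was at 160 and 143 TPM in mESC, 130.4 and 126 TPM in NPC, and 69.3 and 64.8 TPM in NC. Of its exon bases, 11.1% overlap Rccd1 on the other strand.

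Racgap1 (ENSMUSG00000023015.12, chromosome 15, 99620496 to 99651656), the GTPase-activating subunit of centralspindlin, which recruits ECT2 to the midzone, was the one gene that rose in NC. It was at 142 and 150.5 TPM in mESC, 193 and 203 TPM in NPC, and 236 and 207 TPM in NC, the highest level of the 37 genes in NC. The stages did not overlap, with mESC lowest and NC highest. Its log2 fold change in NC against mESC was 0.60 (SE 0.130, limma adjusted p = 0.00775), or 0.29 above the median of all tested genes. After median-of-ratios scaling it was 0.28 and did not pass (limma adjusted p = 0.162), nor did it with FPKM (0.32, limma adjusted p = 0.0981), so the rise depends on the scaling, while no setting gave a fall in NC against mESC.

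Racgap1 and Kif23, the kinesin subunit of centralspindlin, parted. Kif23 was at 75.0 and 65.5 TPM in mESC, 68.3 and 57.8 TPM in NPC, and 28.5 and 33.1 TPM in NC. Racgap1 over Kif23 was 1.89 and 2.30 in the mESC libraries, 2.83 and 3.52 in the NPC libraries, and 8.28 and 6.27 in the NC libraries. Racgap1 over Ect2, its partner, was 1.33 and 1.51 in the mESC libraries, 3.01 and 3.12 in the NPC libraries, and 10.9 and 8.86 in the NC libraries. These ratios are given as descriptions, with no test.

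A further 8 lists of 129 genes around the same machinery, all tested, show how far the pattern reached. In NC against mESC 77 of the 129 fell and 19 rose, with a median log2 fold change of -0.81. That is 59.7% lower and 14.7% higher, beside 22.1% and 37.8% of all tested genes. In NC against NPC 70 fell and 4 rose, or 54.3% and 3.10%, beside 10.1% and 15.2% of all tested genes. After median-of-ratios scaling 89 fell and 7 rose in NC against mESC. All 12 mitotic kinesins fell in NC against mESC (median -1.55), with Kif20b the most negative at -2.12. Kif11, the motor that pushes spindle poles apart, was at 79.1 and 88.5 TPM in mESC, 68.5 and 62.2 TPM in NPC, and 20.3 and 22.2 TPM in NC. Of 19 genes of the inner centromere network, 15 fell and none rose by limma, also at an unadjusted p under 0.05 (median -1.23), among them Cenpu and Oip5, which encodes a loading factor of CENP-A, to 21.7% and 22.5% of the mESC mean. Of 18 condensin and cohesin genes, 14 fell and 2 rose, or 77.8% and 11.1% (median -0.96). The condensin subunit Ncapg and the cohesin protector Sgo1 fell by 1.75 and 1.89, while the cohesin genes Pds5b and Stag2 rose by 0.40 and 0.46. Other cohesin genes, Smc1a, Smc3, Rad21 and Wapl, were called lower, at -0.44, -0.74, -0.43 and -1.17. Stag1 and Pds5a, at -0.47 and -0.32, did not pass. After median-of-ratios scaling Pds5b and Stag2 were at 0.10 and 0.16, and neither passed.

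Of 15 outer kinetochore partners, 9 fell and 3 rose in NC against mESC. Of all tested genes, 22.1% fell and 37.8% rose, so rises were a smaller share of this list than of all tested genes. Of the RZZ complex, which corona and checkpoint need, Zw10 did not pass (log2 fold change -0.28, limma adjusted p = 0.302). The subunits Zwilch and Kntc1 fell by 2.38 and 1.99 on the log2 scale. Zwint (ENSMUSG00000019923.12, chromosome 10, 72654845 to 72674964), a binding partner of KNL1 that is also known to be abundant in brain, went the other way, with 113 and 124 TPM in mESC, 201 and 196 TPM in NPC, and 265 and 250.1 TPM in NC. Its stages did not overlap and it rose in NC against mESC by 1.11 on the log2 scale (SE 0.125, limma adjusted p = 0.000488). After median-of-ratios scaling Zwint was at 0.80 and was the one gene of this list that still passed as higher. Ska2, a subunit of the SKA complex, rose by 0.79 as deposited and was at 0.48 after that scaling, where it did not pass. Mad2l2, the other rise, is counted in the list but is not an established kinetochore subunit. It was at 0.73 as deposited and 0.42 after scaling, and did not pass there either.

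The genes of the anaphase-promoting complex, whose activator Cdc20 fell, were close to all tested genes. Of its 17 subunits and partners, 6 rose and 3 fell in NC against mESC, or 35.3% and 17.6%, beside 37.8% and 22.1% of all tested genes, and the median log2 fold change was 0.27, beside 0.31. After median-of-ratios scaling 2 rose and 3 fell. The core subunits Anapc4 and Anapc16 rose by 1.26 and 1.19 and were the pair that passed under that scaling too, while Ube2c, the ubiquitin-conjugating enzyme of the complex, and Fbxo5, its inhibitor EMI1, fell by 1.59 and 1.96 on the log2 scale. Ube2c was at 263 and 383 TPM in mESC, 241 and 226 TPM in NPC, and 111 and 98.3 TPM in NC. Among 13 genes of the centriole duplication list, which also holds centrosome and spindle microtubule genes, 7 fell and 2 rose (53.8% and 15.4%). Cep55 and Nek2 were lower by 2.03 and 1.62, and Cep63 and Ckap5 higher by 0.59 and 0.37. After median-of-ratios scaling 9 fell, and Cep63 and Ckap5, at 0.29 and 0.06, did not pass.

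**Figure D5:**
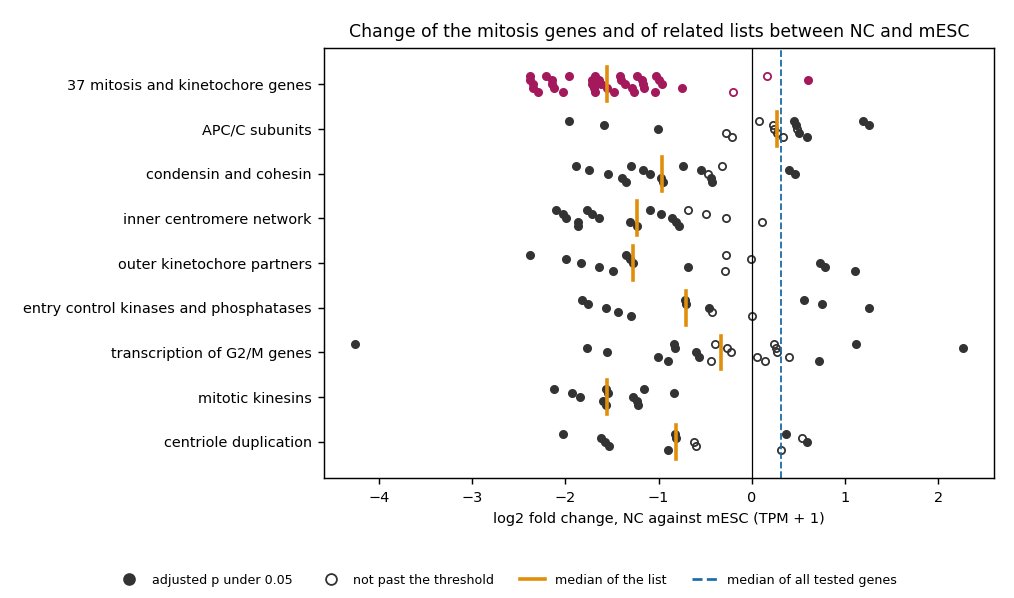
Log2 fold change in NC against mESC of the 37 genes (top row) and of the genes of 8 related lists, filled where the limma adjusted p is under 0.05, with the median of each list as a bar and that of all tested genes as a dashed line. All 12 mitotic kinesins lie left of 0, while the bar of the APC/C subunits (0.27) is close to the dashed line (0.31).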

How the data were processed

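RNA abundance was measured in 6 libraries, 2 each of mESC, NPC and NC. The tables are gene abundance output, 1 per library. Per the file headers, the deposited coverage is the signal over a gene's exons, the deposited FPKM values are scaled per transcript length and library, and the deposited TPM values are rescaled to 1 sum per library. Per the submitters' processing notes the build was mm10 and the tools included StringTie 2.1.5, STAR 2.7.9a, cutadapt 3.4 and DESeq2. The annotation release and strand setting, not given in the sources used here, are unknown, and read counts were not used here, so precision rests on the replicates. The total depth came from the constant ratio of coverage to FPKM shared by 38.3% to 39.7% of genes. Where a table listed a gene ID more than once (2 to 9 lines), the lines were added.

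The 20232 genes that reached 1 TPM in 2 or more libraries were tested with limma 3.58.1 in R 4.3.3 (lmFit, eBayes with a trend) on log2(TPM + 1), a scale that understates the change of low genes. The fit had 1 coefficient per stage, no block and 3 residual degrees of freedom, and tests were two-sided. It was tested on simulated data first. The members and lists were chosen with earlier results of these data known, and lists are given as counts and medians with no test. All 37 genes are named, and of each related list up to 4 genes past the threshold in NC against mESC, the 2 most negative and the 2 most positive. Outside this rule, Kif23 is named as the partner of Racgap1, and the NF-Y and MuvB subunits for the promoter elements. Smc1a, Smc3, Rad21, Wapl, Stag1 and Pds5a are named beside the cohesin genes that rose. Mad2l2 is named as the other rise of its list, and Zw10 beside Zwilch and Kntc1. Ratios between genes, near-identical copies (at least 95% identity over 200 bases, GENCODE vM21) and promoter letters (RefSeq, GRCm38.p6) are descriptions. For a gene with several windows, positions are those of the first listed. Older symbols were matched through RefSeq synonyms. Protein sequences were not used here. Alternatives were 2 pseudocounts, no filter, 2 scalings, FPKM, no trend, 4 libraries, a replicate block and leaving out each library, and for promoters a shorter window and TTTGAA alone.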

Additional observations from a re-analysis of the deposited data

How the results depend on the processing

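The fall of the 37 genes in NC against mESC hardly moved: 32 to 35 were called lower in every setting run, with log2 fold changes of the 34 between -2.69 and -0.64. The calls lost were Pttg1 and Cenpe when 1 library was left out (adjusted p of 0.0595 to 0.0694). The first step was less firm. Its 2 rises became 1 with no filter or only the 4 libraries compared, and 0 after median-of-ratios scaling, with FPKM, without a trend or with the replicate block; leaving out a library gave 0 to 1. Its 14 falls ran from 3 to 14 when a library was left out, and were 10 to 18 otherwise. The 34 falls in NC against NPC ran from 4 to 32 when a library was left out, with the 4 seen without NPC replicate 1. The single rise in NC against mESC became 0 after median-of-ratios scaling and with FPKM. Leaving out a library leaves its stage with 1, taken to vary like the others. Over all genes, 8100 changed in NPC against mESC (4032 to 8484 with a library left out), 5123 in NC against NPC (3166 with no filter, 309 to 4156 with a library left out). Median-of-ratios scaling gave, for the 129 related genes, 10 higher and 39 lower in NPC against mESC in place of 19 and 24, and 7 higher in NC against mESC in place of 19. The cause was not tested.

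Over all tested genes, same-numbered replicates did not deviate together (correlations of 0.05, -0.07 and -0.08). These correlations weigh every tested gene alike, low ones included, so they cannot settle whether the numbers pair libraries. With the replicate block 11, 34 and 34 members were lower and 0, 0 and 1 higher in the 3 comparisons.

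Directions that turned belonged to values that had not passed. In NPC against mESC, median-of-ratios scaling gave -0.02 for Aurkb, -0.01 for Cdca8, -0.10 for Spc25, -0.20 for Cenpf and -0.23 for Mki67. Quantile normalization gave -0.06 for Cenpf and 0.10 for Top2a, and FPKM gave -0.08 for Cenpf and -0.11 for Mki67. Leaving out a library gave -0.20 to 0.05 for Plk4, -0.20 to 0.03 for Pttg1, -0.34 to 0.26 for Cenpe, -0.27 to 0.32 for Cenpf and -0.20 to 0.21 for Mki67. In NC against NPC it gave -0.01 to 0.01 for Fzr1, and FPKM gave -0.01 for Racgap1. In NC against mESC, Bub3 was at -0.15 after median-of-ratios scaling, -0.11 with FPKM and -0.02 to 0.34 with a library left out. Of the promoters, 65.6% to 71.9% held CCAAT, 68.8% to 71.9% CHR letters and 56.2% to 62.5% both when 1 choice was changed at a time, and 53.1% held both with both choices changed. With 2 libraries a stage, small changes are below what these data can show.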

Other observations

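A list of 22 genes for transcription in G2 and mitosis holds subunits of NF-Y and MuvB, FOXM1 and B-MYB, and also E2F and retinoblastoma family members. Of the 22, 9 fell and 3 rose in NC against mESC, or 40.9% and 13.6%, beside 22.1% and 37.8% of all tested genes. The median log2 fold change was -0.33, beside 0.31 for all tested genes. In NPC against mESC 2 fell and 5 rose, or 9.09% and 22.7%, near the 14.0% and 26.0% of all tested genes. Of the NF-Y subunits, which bind CCAAT, Nfyb fell by 0.60 in NC against mESC (SE 0.138, limma adjusted p = 0.0091), and Nfya and Nfyc, at 0.40 and 0.06, did not pass. Mybl2, the B-MYB factor that activates mitotic genes with MuvB, was at 413 and 366 TPM in mESC, 58.4 and 55.8 TPM in NPC, and 17.1 and 22.0 TPM in NC. It fell by 2.75 on the log2 scale in NPC against mESC (SE 0.163, limma adjusted p = 8.7e-05) and by 1.51 in NC against NPC (SE 0.163, limma adjusted p = 0.00348). Rb1, the retinoblastoma protein that holds E2F factors, was at 7.60 and 7.16 TPM in mESC, 30.7 and 34.5 TPM in NPC, and 41.2 and 37.4 TPM in NC, and rose by 2.27 in NC against mESC (SE 0.170, limma adjusted p = 0.000103). The MuvB subunits differed. Lin37 rose by 0.72, and was at 0.42 after median-of-ratios scaling, where it did not pass. Lin54 was lower, with a log2 fold change of -1.01 (limma adjusted p = 0.00339), and passed after that scaling too. Lin9, Lin52 and Rbbp4, at -0.27, 0.24 and -0.22, did not pass as deposited, and Rbbp4 passed as lower after scaling (-0.53). Rbl2, which encodes p130 of the repressing DREAM complex, rose by 1.12, and E2f4, its usual E2F partner, fell by 1.77 on the log2 scale.

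Of 13 kinases, phosphatases and partners that control entry into mitosis, 8 fell and 3 rose in NC against mESC. That is 61.5% and 23.1%, beside 22.1% and 37.8% of all tested genes. Wee1, the kinase that restrains CDK1, fell by 1.82 on the log2 scale, and Cks2, a small CDK subunit, by 1.76. Cdc25b, a phosphatase that activates CDK1, had 39.3 and 32.1 TPM in mESC, 157 and 199 TPM in NPC, and 98.1 and 76.6 TPM in NC. It was highest in NPC, rising by 2.28 against mESC (SE 0.198, limma adjusted p = 0.000337) and falling by 1.02 in NC against NPC (SE 0.198, limma adjusted p = 0.0142). Arpp19, a phosphatase inhibitor of mitotic entry, rose by 0.75 in NC against mESC.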
